A study of Homo sapiens with 8 samples.

Results

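The genes described here are 10 targets and regulators of the transcription factor pair YAP and TEAD. They were chosen by name: *CTGF*, *CYR61*, *ANKRD1*, *AMOTL2*, *LATS2* and *AXL*, whose transcription YAP and TEAD are known to drive, and *YAP1*, *WWTR1*, *TEAD1* and *VGLL3*, which encode the factors or their relatives. Each name had a row in the table of normalized counts, so that 10 of 10 were found among 13307 genes. The table holds mRNA of Panc-1, a human cell line from a carcinoma of the pancreatic duct, in 4 groups of 2 libraries. Cells received control siRNA or siRNA against *PHF13*, which encodes a chromatin reader with a PHD finger, and were left untreated (siControl, siPHF13) or kept for 48 h with 10 ng/ml TGFβ (siControl + TGFβ, siPHF13 + TGFβ). All groups went through transfection, including those called untreated here. TGFβ is a cytokine that drives epithelial-to-mesenchymal transition in such cells, and the study asked what *PHF13* depletion does to that response. Every value comes from 1 cell line with 2 libraries a group. The labels do not say whether the duplicates were separate cultures, so p-values measure the spread between these libraries, which may be technical.

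YAP and its paralog TAZ, encoded by *WWTR1*, are coactivators without a DNA-binding domain of their own. In the nucleus they bind TEAD proteins, which recognise the letters GGAATG or the reverse CATTCC in DNA. In the Hippo pathway the kinases MST1 and MST2 activate LATS1 and LATS2, which phosphorylate YAP and TAZ and hold them in the cytoplasm. Some targets feed back: LATS2 and the angiomotin-like scaffold AMOTL2 restrain YAP. Because most of this control acts on protein and its location, mRNA of *YAP1* or *WWTR1* is not a measure of their activity.

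The libraries held 39196214 to 46700806 reads on genes. *PHF13* itself, the targeted gene, read 1804.0 and 1662.4 normalized counts in siControl, 524.2 and 558.3 in siPHF13, 1585.9 and 1709.5 in siControl + TGFβ, and 512.8 and 529.4 in siPHF13 + TGFβ, so that all 4 depleted libraries lay below the others. A known TGFβ target moved with the label: *SMAD7*, an inhibitor of the pathway, was 2.11-fold higher in siControl + TGFβ than in siControl. The 5 duct markers fixed for the check (*KRT7*, *KRT8*, *KRT18*, *KRT19*, *EPCAM*) were all present, with a summed level of 193424 to 203975 normalized counts in siControl, 171764 to 194400 in siPHF13, 121692 to 127368 in siControl + TGFβ and 138409 to 150094 in siPHF13 + TGFβ. *KRT8* was the largest part of this sum (mean 116542 in siControl), and the markers did not move alike. With depletion without TGFβ *KRT18* (0.79-fold) and *KRT8* (0.90-fold) were lower, and *KRT7* was at 0.99-fold. *KRT19* (1.19-fold) and *EPCAM* (1.73-fold) were higher. With depletion in TGFβ-treated cells *KRT19* was 1.69-fold and *EPCAM* 1.93-fold higher, against 1.11-fold for *KRT8*, 1.00-fold for *KRT7* and 0.96-fold for *KRT18*. Of 5 fibroblast markers 2 had a row (*COL1A1*, *PDGFRB*). Their sum was 3371 to 3462 in siControl, 1917 to 1970 in siPHF13, 15359 to 16471 in siControl + TGFβ and 4736 to 4946 in siPHF13 + TGFβ. Of 4 leukocyte markers only *CD68* had a row, with 7236 to 7360 in siControl, 11903 to 13047 in siPHF13, 6137 to 7666 in siControl + TGFβ and 10524 to 13400 in siPHF13 + TGFβ. None of 3 endothelial markers had a row. *COL1A1* and *CD68* can also be expressed by carcinoma cells, and the part of other cells in the results was not tested. Bulk libraries cannot tell fewer cells of a kind from less RNA per cell.

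To show where TEAD letters lie at the genes, the 250 bases before the transcription start were taken from RefSeq (GRCh38.p14), which held 11 such windows for 8 of the 10 genes. *CYR61* and *TEAD1* had no entry. Windows were searched on both strands for GGAATG. The 3 shown belong to the 3 genes that passed both the adjusted p and the fold threshold given below as higher with depletion without TGFβ. None of these windows overlaps an annotated exon. *CYR61*, *AMOTL2* and *AXL* were also higher and passed the adjusted p, but fell short of the fold threshold and are not shown. Capitals mark GGAATG. By exact match the windows lie in GRCh37 at chr6:132272513-132272762 (*CTGF*), chr10:92680845-92681094 (*ANKRD1*) and chr13:21635726-21635975 (*LATS2*), all on the minus strand, and they are written 5′ to 3′ in the direction of the gene.
CTGF: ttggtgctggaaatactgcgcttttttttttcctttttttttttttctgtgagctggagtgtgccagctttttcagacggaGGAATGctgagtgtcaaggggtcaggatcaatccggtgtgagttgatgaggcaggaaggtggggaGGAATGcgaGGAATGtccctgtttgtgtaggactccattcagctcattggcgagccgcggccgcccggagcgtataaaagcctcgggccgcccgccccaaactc
ANKRD1: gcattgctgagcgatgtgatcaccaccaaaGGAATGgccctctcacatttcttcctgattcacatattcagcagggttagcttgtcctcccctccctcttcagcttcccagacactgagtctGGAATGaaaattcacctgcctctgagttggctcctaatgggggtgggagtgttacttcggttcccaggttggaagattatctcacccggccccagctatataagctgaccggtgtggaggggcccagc
LATS2: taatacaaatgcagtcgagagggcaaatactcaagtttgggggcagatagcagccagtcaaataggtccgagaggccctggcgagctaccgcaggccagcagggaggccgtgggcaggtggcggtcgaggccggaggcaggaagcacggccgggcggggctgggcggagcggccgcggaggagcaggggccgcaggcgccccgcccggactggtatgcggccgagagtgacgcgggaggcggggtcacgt

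The *CTGF* window held 3 matches, at 169, 104 and 95 bases before the start. That of *ANKRD1* held 2, at 220 and 128 bases, and the *LATS2* window held none. Single matches stood in 1 of 2 windows of *AMOTL2* (69 bases, as CATTCC), in 1 of 2 windows of *AXL* (212 bases, as CATTCC) and in the *YAP1* window (162 bases). The matched windows of *AMOTL2* and *AXL* lie inside the annotated gene, before an inner start. The window of each nearer the 5′ end of the gene held none. The matched *AMOTL2* window covers 115 bases of its own exons, and the *YAP1* window 250 bases of a lncRNA exon. The windows of *WWTR1* and *VGLL3* had none. Among all 35116 RefSeq windows of this length, 11.9% held at least 1 match, 0.94% at least 2 and 0.083% at least 3. The AP1 letters TGANTCA, searched with any base at N, were found in the *ANKRD1* window only, against 6.57% of all windows. That match reads TGATTCA and lies 195 bases before the start. Neither the SMAD palindrome GTCTAGAC (0.182% of all windows) nor the CArG box bound by SRF (1.16%) was in any of the 11. No match overlapped another. A match is a run of letters and not a measured binding site, and a window without one says nothing of sites elsewhere.

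**Figure D1:**
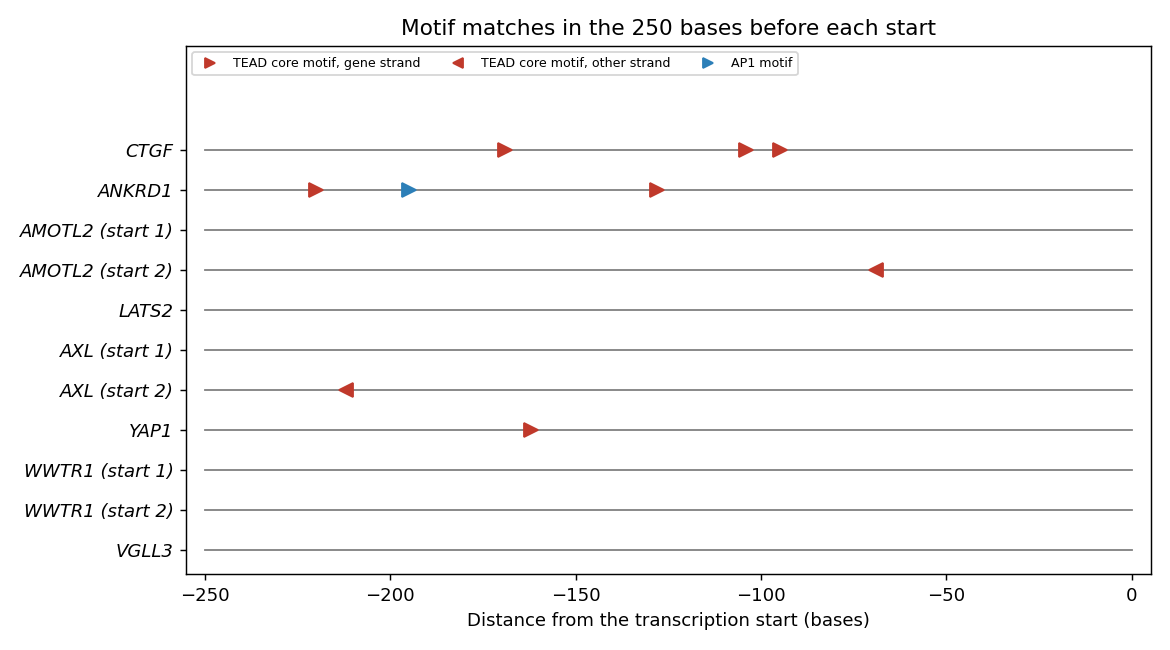
Matches to the TEAD letters (GGAATG, both strands) and to the AP1 letters (TGANTCA, with any base at N) along the 250 bases before each RefSeq start. The x axis gives the distance from the start in bases, with 1 line per window. *CTGF* has 3 TEAD matches, *ANKRD1* 2 with 1 AP1 match, and *LATS2* none.

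*CTGF* and *CYR61* encode secreted matricellular proteins of the CCN family (CCN2 and CCN1) and are the most used readouts of YAP. Both were lowest in siControl, higher after either treatment, and *CTGF* was highest when depletion and TGFβ were combined. *CTGF* (ENSG00000118523, chr6:132269316-132272512, minus strand, GRCh37) had 6103.4 and 5707.0 normalized counts in siControl, 12602.2 and 11143.9 in siPHF13, 15111.5 and 14351.5 in siControl + TGFβ, and 19352.8 and 18141.1 in siPHF13 + TGFβ. No 2 groups overlapped, so the order siControl, siPHF13, siControl + TGFβ, siPHF13 + TGFβ held in every library. A gene counted as changed when the adjusted p of the limma fit was under 0.05 and the log2 fold change, taken on log2(normalized count + 1), was over 0.58 in either direction. By that rule depletion raised *CTGF* 2.01-fold without TGFβ (log2 fold change 1.01, SE 0.070, Benjamini-Hochberg adjusted p = 1.13e-07). TGFβ raised it 2.49-fold in control cells (1.32, adjusted p = 2.88e-08) and 1.58-fold in depleted cells (0.66, adjusted p = 7.66e-05). In TGFβ-treated cells the depleted libraries were 1.27-fold higher, with a log2 fold change of 0.35 (limma adjusted p = 0.000995), short of the fold threshold. The rise with TGFβ in depleted cells came to 0.57, just below that threshold, without siPHF13 replicate 2.

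*CYR61* (ENSG00000142871, chr1:86046444-86050272, plus strand) had 11876.7 and 11911.3 normalized counts in siControl and 14845.1 and 15177.5 in siPHF13. With TGFβ it had 17846.6 and 16262.5 in control and 17942.9 and 17594.4 in depleted cells. The TGFβ-treated libraries overlapped each other and lay above both untreated groups. The differences were smaller than for *CTGF* and did not pass the fold threshold: 1.26-fold with depletion (log2 fold change 0.34, limma adjusted p = 0.00043), 1.43-fold with TGFβ in control cells (0.52, adjusted p = 5.19e-05) and 1.18-fold with TGFβ in depleted cells (0.24, adjusted p = 0.0435). Without siControl + TGFβ replicate 2 the value for TGFβ in control cells was 0.59, past it. Depletion in TGFβ-treated cells gave 0.06, with a 95% interval from -0.07 to 0.19 (adjusted p = 0.426).

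*ANKRD1*, which encodes an ankyrin repeat protein of muscle and stressed epithelium and is among the most responsive YAP targets, changed the most of the 6 targets with depletion in cells without TGFβ. It is a low gene (ENSG00000148677, chr10:92671853-92680844, minus strand). Its values were 97.7 and 91.0 normalized counts in siControl, 202.7 and 184.1 in siControl + TGFβ, 317.3 and 275.2 in siPHF13, and 444.8 and 412.9 in siPHF13 + TGFβ. Groups did not overlap in any pair. Here depletion alone gave the higher level and TGFβ alone the lower, the opposite of the order seen for *CTGF*. The rise with depletion was 3.14-fold without TGFβ (log2 fold change 1.64, SE 0.16, limma adjusted p = 2.08e-06) and 2.22-fold with it (1.15, adjusted p = 4.53e-05). TGFβ raised it 2.05-fold in control cells (1.03, adjusted p = 0.000524). In depleted cells TGFβ gave 1.45-fold (0.53, adjusted p = 0.104), which did not pass the test. These values rest on 101 to 429 reads a library. The smallest, 101 reads in siControl replicate 2, has a 95% Poisson interval of 82.3 to 122.7 reads that covers counting error only.

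*LATS2*, the Hippo kinase that phosphorylates YAP and is itself a YAP target, was called higher with depletion and was not called with TGFβ. *LATS2* (ENSG00000150457, chr13:21547175-21635725, minus strand) had 785.3 and 825.3 normalized counts in siControl, 894.8 and 955.5 in siControl + TGFβ, 1943.5 and 2190.9 in siPHF13, and 2425.7 and 1977.0 in siPHF13 + TGFβ. The 4 depleted libraries lay above the 4 others, and the 2 depleted groups overlapped each other. The siControl + TGFβ libraries lay above those of siControl. Depletion raised it 2.57-fold without TGFβ (log2 fold change 1.36, SE 0.10, limma adjusted p = 2.36e-07) and 2.38-fold with it (1.24, adjusted p = 4.51e-07). For TGFβ the log2 fold change was 0.20 in control cells (95% interval -0.02 to 0.42, adjusted p = 0.227) and 0.09 in depleted cells (-0.14 to 0.31, adjusted p = 0.792).

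*AMOTL2*, the angiomotin-like scaffold that tethers YAP at cell junctions, was higher after depletion by less than the fold threshold. *AMOTL2* (ENSG00000114019, chr3:134074189-134094321, minus strand) had 4528.9 and 4318.5 normalized counts in siControl, 5376.4 and 5077.0 in siControl + TGFβ, 5536.2 and 6104.1 in siPHF13, and 6470.7 and 5661.4 in siPHF13 + TGFβ. The siControl libraries were lowest, and both depleted groups overlapped at the top. Its log2 fold change with depletion was 0.39 without TGFβ (limma adjusted p = 0.000789) and 0.21 with it (adjusted p = 0.0324). With TGFβ it was 0.24 in control cells (adjusted p = 0.0471) and 0.06 in depleted cells (adjusted p = 0.819). The adjusted p for TGFβ in control cells and for depletion with TGFβ did not stay under 0.05 in every alternative.

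*AXL*, a receptor tyrosine kinase for GAS6 that marks mesenchymal carcinoma cells, was the only one of the 6 targets that was lower with TGFβ in control cells. *AXL* (ENSG00000167601, chr19:41725128-41767671, plus strand) had 10148.6 and 10458.0 normalized counts in siControl, 7747.1 and 8117.4 in siControl + TGFβ, 12431.1 and 12841.6 in siPHF13, and 12151.2 and 11593.2 in siPHF13 + TGFβ. No pair of groups overlapped, with siControl + TGFβ lowest and siPHF13 highest. The value for TGFβ in control cells was a log2 fold change of -0.38 (limma adjusted p = 0.000542), short of the fold threshold, and in depleted cells -0.09 (adjusted p = 0.564). Depletion gave 0.29 without TGFβ (1.23-fold, adjusted p = 0.000968). In TGFβ-treated cells it gave a higher level by a log2 fold change of 0.58 (SE 0.059, adjusted p = 2.61e-06), a call at the very edge of the threshold, which came to 0.55 without siControl + TGFβ replicate 1 and to 0.55 without siPHF13 + TGFβ replicate 1.

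**Figure D2:**
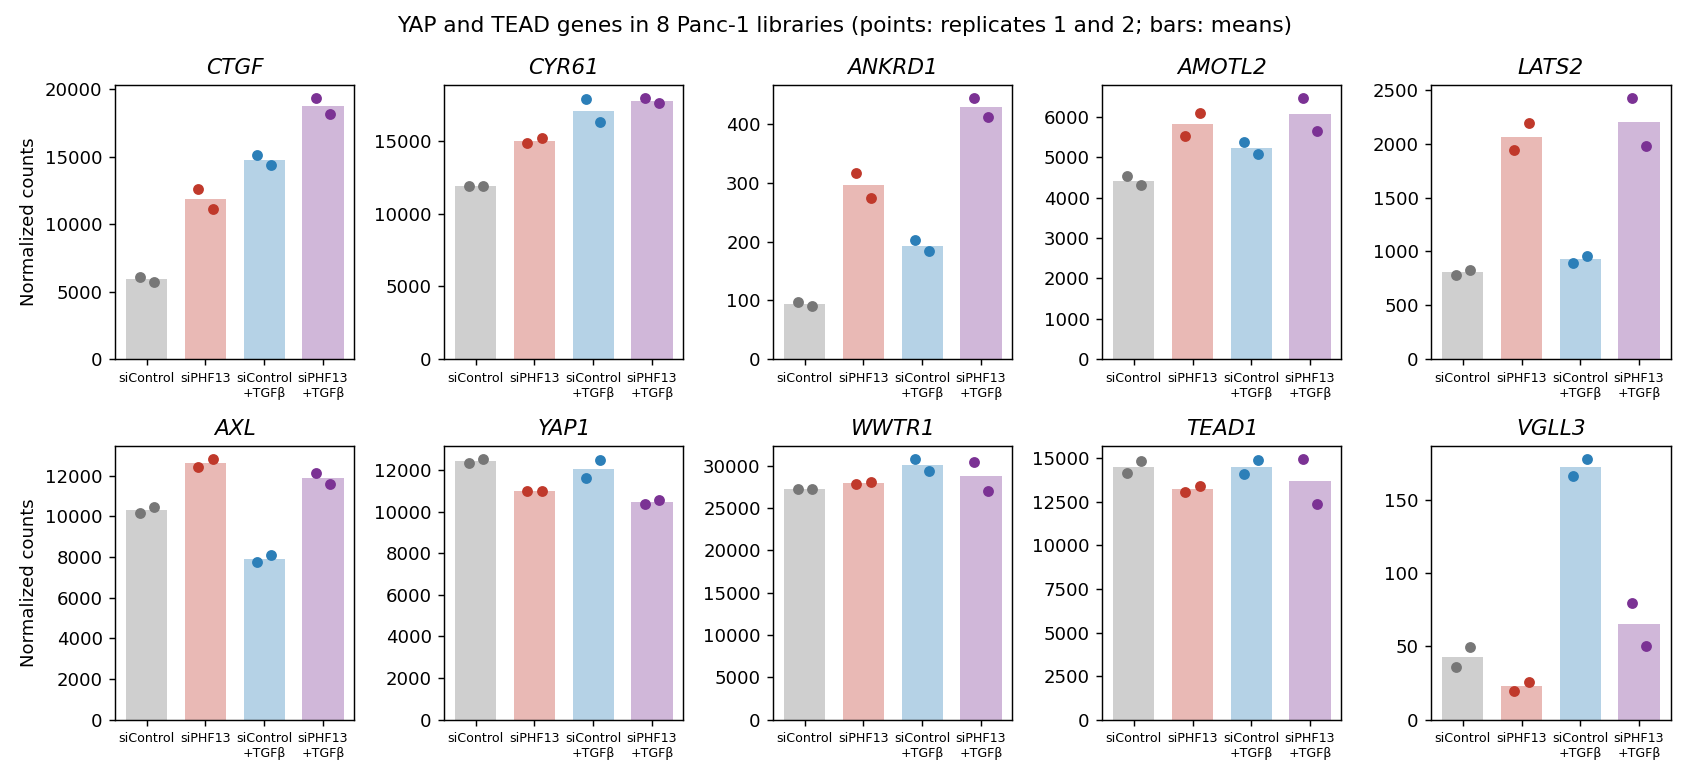
Normalized counts of the 10 genes in each of the 8 libraries, by group, with a panel and its own axis from 0 for each gene. Points are libraries and bars are group means (n = 2). *LATS2* is high in the 4 depleted libraries, *VGLL3* in the 2 siControl + TGFβ libraries, and *CTGF* climbs from a mean of 5905 in siControl to 18747 in siPHF13 + TGFβ.

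The mRNAs of the coactivators and of TEAD1 moved little. *YAP1* (ENSG00000137693, chr11:101981178-102104155, plus strand) had 12311.1 and 12533.9 normalized counts in siControl, 11627.2 and 12488.8 in siControl + TGFβ, 10978.9 and 10988.0 in siPHF13, and 10361.3 and 10571.1 in siPHF13 + TGFβ. The depleted libraries were below the control ones in every case. The log2 fold change was -0.18 without TGFβ (0.88-fold, limma adjusted p = 0.0216) and -0.20 with it (0.87-fold, adjusted p = 0.00979), below the fold threshold. For TGFβ it was -0.04 in control cells (95% interval -0.17 to 0.08) and -0.07 in depleted cells (-0.19 to 0.06).

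*WWTR1* (ENSG00000018408, chr3:149235022-149454501, minus strand) had 27273.2 and 27265.4 normalized counts in siControl, 27815.4 and 28074.3 in siPHF13, 30836.5 and 29337.6 in siControl + TGFβ, and 30426.6 and 27075.9 in siPHF13 + TGFβ. Neither depletion (log2 fold change 0.04, 95% interval -0.10 to 0.17, and with TGFβ -0.07, -0.21 to 0.07) nor TGFβ (0.14, 0.00 to 0.28, limma adjusted p = 0.167, and in depleted cells 0.04, -0.10 to 0.18) passed the test. *TEAD1* (ENSG00000187079, chr11:12695968-12966284, plus strand), which encodes the DNA-binding partner, had 14130.3 and 14851.3 in siControl, 13063.7 and 13389.1 in siPHF13, 14101.4 and 14918.2 in siControl + TGFβ, and 14977.4 and 12388.3 in siPHF13 + TGFβ. Its neighbours in the order of group means all overlapped. The 4 log2 fold changes of *TEAD1* ran from -0.13 to 0.04, and the widest 95% bound among them was -0.30. The 2 libraries of siPHF13 + TGFβ were farther apart for *TEAD1* (SD 1831) and *WWTR1* (SD 2369) than those of any other group, with replicate 1 the higher. The same held for *AMOTL2* (SD 572), *AXL* (SD 395), *LATS2* (SD 317) and *VGLL3* (SD 21.1), but not for *CTGF*, *CYR61*, *ANKRD1* or *YAP1*.

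*VGLL3*, a vestigial-like cofactor that binds TEAD in place of YAP, behaved unlike the others. It is by far the lowest of the 10 (ENSG00000206538, chr3:86925538-87040299, minus strand), with 20 to 173 reads a library. Its levels were 36.0 and 49.6 normalized counts in siControl, 19.9 and 25.6 in siPHF13, 166.0 and 177.9 in siControl + TGFβ, and 79.9 and 50.0 in siPHF13 + TGFβ. The groups did not overlap, although siControl replicate 2 at 49.6 and siPHF13 + TGFβ replicate 2 at 50.0 nearly met. TGFβ raised it 4.02-fold in control cells (95% interval 1.31 to 2.69 on the log2 scale, limma adjusted p = 0.000722), the largest response to TGFβ among the 10, and 2.85-fold in depleted cells (1.45, adjusted p = 0.0246). Depletion lowered it to 0.38-fold in TGFβ-treated cells (-1.43, adjusted p = 0.00217) and to 0.53-fold without TGFβ (-0.87, adjusted p = 0.0375). The last call was lost when only the compared libraries were fitted (adjusted p = 0.0811), with edgeR (0.0545), without siControl replicate 2 (-0.65, 0.233) and without siPHF13 replicate 1 (-0.70, 0.167). The rise in depleted cells was also lost with only the compared libraries (0.102) and without siPHF13 replicate 1 (1.27, 0.152), siPHF13 replicate 2 (1.62, 0.0595) or siPHF13 + TGFβ replicate 1 (1.11, 0.145). The fall in TGFβ-treated cells and the rise with TGFβ in control cells held in all 11 alternatives. The 20 reads in siPHF13 replicate 1 have a 95% Poisson interval of 12.2 to 30.9, below that of the 55 reads in siControl replicate 2 (41.4 to 71.6) but reaching that of the 38 reads in siControl replicate 1 (26.9 to 52.2).

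Exons of some of these genes overlap other annotated transcripts on the opposite strand, and the strand setting of the counting is not given in the sources used here. If strand was not used, reads of both cannot be told apart there. *CTGF* shares 278 bases of exon with *LINC01013* (11.9% of its exon bases), *YAP1* 628 bases with a lncRNA (9.95%), *WWTR1* 756 bases with *WWTR1-AS1* (9.05%) and *AXL* 67 bases with a lncRNA (1.31%). On its own strand *AMOTL2* shares 187 bases (2.89%) with the pseudogene *RPL39P5*.

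Between genes, levels are compared as mean normalized counts per kb of annotated exon (GENCODE 44 on GRCh37). In siControl *WWTR1* (3265 per kb) and *CYR61* (3216) led, followed by *CTGF* (2526), *AXL* (2007), *YAP1* (1968), *TEAD1* (1354), *AMOTL2* (683), *LATS2* (143), *ANKRD1* (52.7) and *VGLL3* (3.36). In this order only *AXL* and *YAP1* overlapped between libraries. Lengths are those of all annotated exons and not of the transcripts these cells make. On this scale *CTGF* was highest in the other 3 groups, at 5078 per kb in siPHF13, 6301 in siControl + TGFβ and 8018 in siPHF13 + TGFβ. *AXL*, just above *YAP1* in siControl, was below it in siControl + TGFβ (1545 against 1911) and above it in siPHF13 + TGFβ (2312 against 1658).

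**Figure D3:**
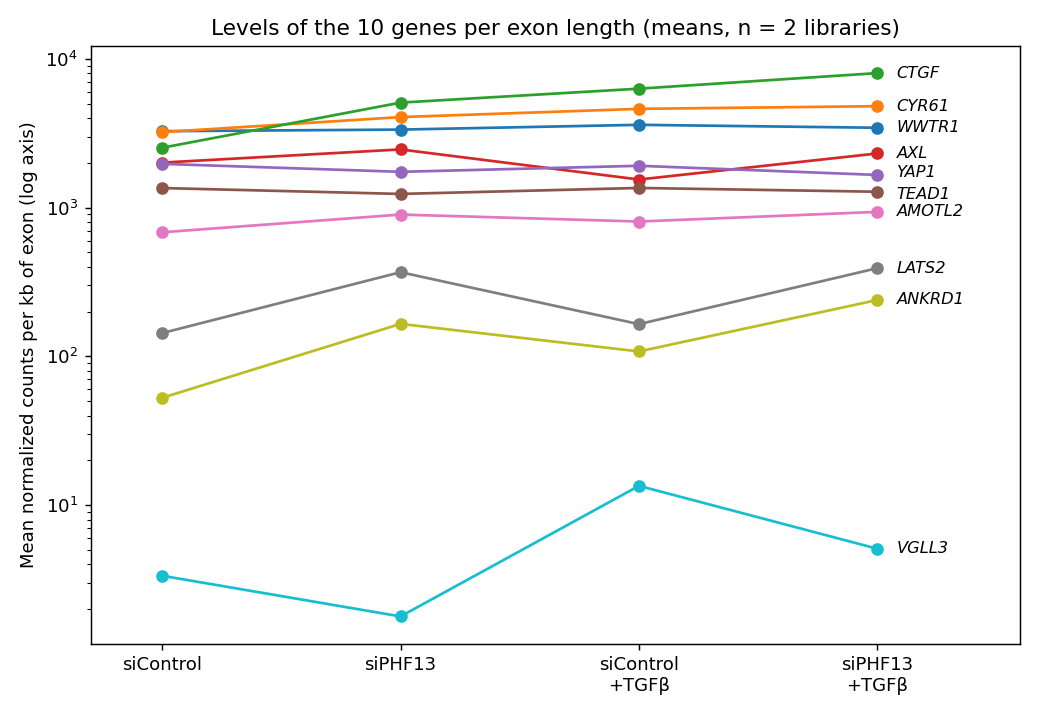
Mean normalized counts per kb of exon for the 10 genes in the 4 groups, on a log axis (n = 2 libraries a group). *CTGF* rises from the third place in siControl (2526 per kb) to the first in the other groups, while *WWTR1*, *YAP1* and *TEAD1* run nearly flat.

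Set against all genes, depletion without TGFβ changed 4 of the 10, where 18.4% of 13307 genes were called. Of these *CTGF*, *ANKRD1* and *LATS2* were higher (7.95% of all genes) and *VGLL3* lower (10.4%). By the adjusted p alone 8 of the 10 passed, where 47.4% of all genes did, and in 10 of 10 the libraries of both groups did not overlap, where that held for 77.3%. The median log2 fold change of the 10 was 0.32 and that of all genes 0.00. In TGFβ-treated cells depletion also changed 4, where 20.5% of genes were called. *ANKRD1*, *LATS2* and *AXL* were higher (8.81% of all genes) and *VGLL3* lower (11.7%). By the adjusted p alone 7 passed (50.4% of all genes), groups did not overlap in 7 (71.7%), and the median was 0.14.

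TGFβ changed 3 of the 10 in control cells, where 4.79% of genes were called. All 3 (*CTGF*, *ANKRD1*, *VGLL3*) were higher, as were 3.27% of all genes, while 1.52% were lower. By the adjusted p alone 6 passed (15.9%), groups did not overlap in 8 (60.2%), and the median was 0.22. In depleted cells TGFβ changed 2, *CTGF* and *VGLL3*, where 1.35% of genes were called. Both were higher, as were 1.13% of all genes, and 0.218% were lower. By the adjusted p alone 3 passed (3.07%), groups did not overlap in 6 (39.8%), and the median was 0.07. These comparisons share libraries, so they are given side by side and not as separate evidence. The genes were chosen with earlier results of these data known.

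**Figure D4:**
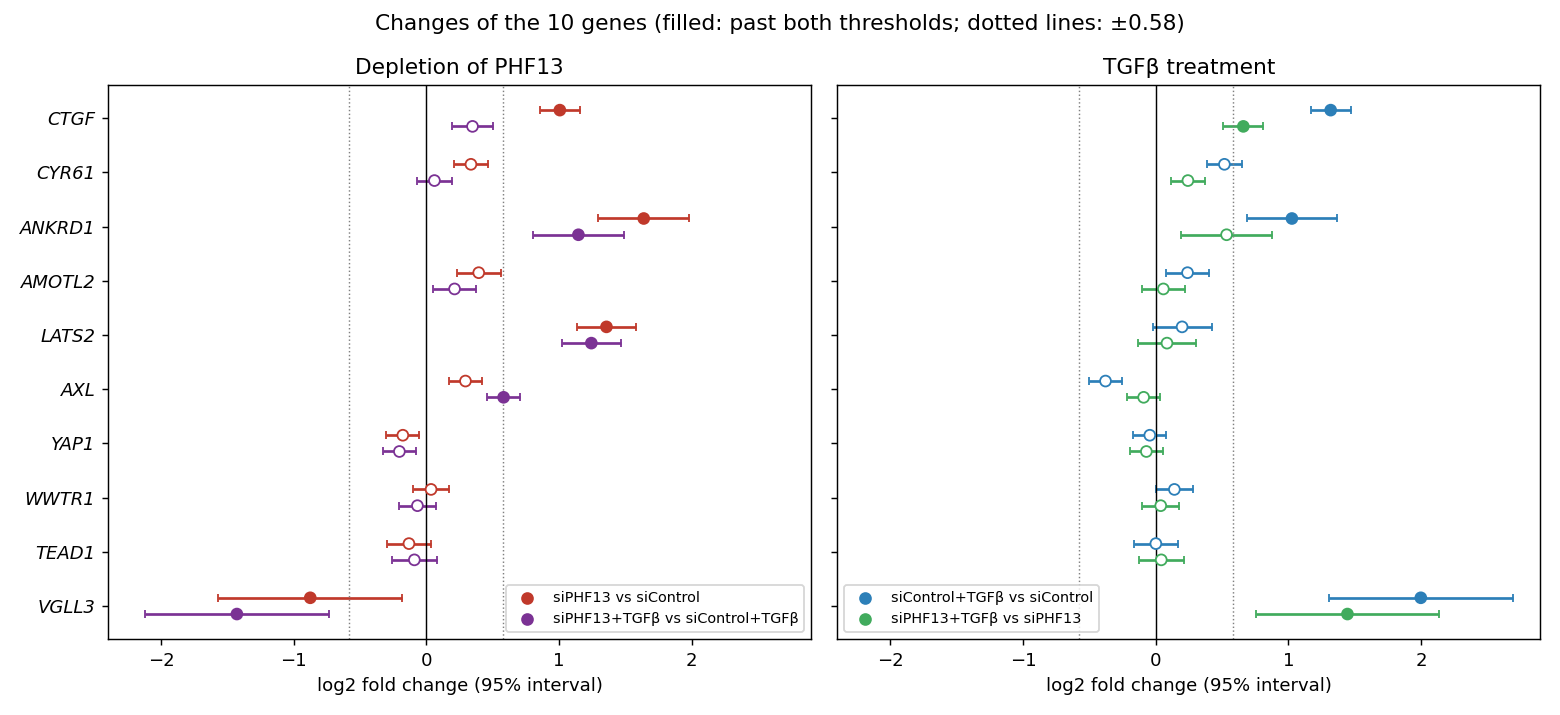
Log2 fold changes of the 10 genes with 95% intervals, for depletion of *PHF13* (left, without and with TGFβ) and for TGFβ (right, in control and in depleted cells). Filled points passed both thresholds, and dotted lines mark 0.58 in either direction. *LATS2* stands at 1.36 and 1.24 in the left panel and at 0.20 and 0.09 in the right, while *VGLL3* points down on the left and up on the right.

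Whether the response to TGFβ differed between depleted and control cells was tested as an interaction in the same fit. *CTGF* was the 1 gene of the 10 that passed, where 0.308% of all genes were called (0.248% with an interaction below 0, 0.0601% with one above 0, and 0.413% by the adjusted p alone). Its rise with TGFβ was smaller in depleted cells by 0.66 on the log2 scale (interaction -0.66, SE 0.10, limma adjusted p = 0.00909). It was higher with TGFβ in both settings, and its highest level was in depleted, treated cells. The call was lost without siControl replicate 2 (-0.61, adjusted p = 0.142), siControl + TGFβ replicate 1 (-0.62, 0.0871) or siPHF13 replicate 1 (-0.57, 0.0631). The interaction was -0.28 for *CYR61* (adjusted p = 0.245), -0.49 for *ANKRD1* (adjusted p = 0.509), 0.29 for *AXL* (adjusted p = 0.21) and -0.55 for *VGLL3* (adjusted p = 0.789), none of which passed. For *VGLL3* the 95% interval reached from -1.53 to 0.43 on the log2 scale. *LATS2* gave -0.11 (-0.43 to 0.20).

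Other genes of the pathway were taken as 3 lists. The first held 24 Hippo kinases, scaffolds and regulators, all present. Depletion changed 8 of them without TGFβ (33.3%, against 18.4% of all genes), 2 higher and 6 lower (7.95% and 10.4% of all genes), with a median log2 fold change of -0.24. With TGFβ it changed 9 (37.5%, against 20.5%), 2 higher and 7 lower (8.81% and 11.7%), with a median of -0.29. By the adjusted p alone 17 of the 24 passed without TGFβ (5 higher, 12 lower), where 47.4% of all genes did. With TGFβ 18 passed (4 higher, 14 lower), where 50.4% did. The largest falls without TGFβ were *NF2*, which encodes the scaffold merlin that brings LATS kinases to the membrane (-1.14, SE 0.064, limma adjusted p = 1.77e-08), and *MOB1A*, the cofactor of LATS (-0.88, adjusted p = 4.32e-08). The rises were *WWC1*, which encodes the scaffold KIBRA (0.75, adjusted p = 2.23e-05), and *DCHS1*, a protocadherin ligand of FAT4 (0.69, adjusted p = 0.0036). With TGFβ the largest falls were *AMOT*, the angiomotin that binds YAP (-1.14, adjusted p = 0.000205), and *NF2* (-1.10, adjusted p = 1.79e-08), and the rises *DCHS1* (0.70, adjusted p = 0.00303) and *WWC1* (0.59, adjusted p = 0.000148). *WWC1* was at 0.45 without siControl + TGFβ replicate 2, below the fold threshold. TGFβ in control cells changed 1 of the 24 (4.17%, near the 4.79% of all genes), *FRMD6*, a FERM-domain regulator (0.75, adjusted p = 1.61e-06). In depleted cells it changed 0 of the 24 by limma, edgeR or DESeq2, where limma called 1.35% of all genes. Of the 24, 5 had an unadjusted p under 0.05. By the adjusted p alone 1 passed, where 3.07% of all genes did: *FRMD6* (0.38, limma adjusted p = 0.00235).

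The second list held the other TEAD and vestigial-like factors, of which 4 of 6 were analysed. Depletion changed 1 of these 4 in each setting (25.0%, against 18.4% and 20.5% of all genes). *TEAD4* rose with depletion by 0.73 on the log2 scale without TGFβ (SE 0.091, limma adjusted p = 1.93e-05) and by 0.69 with it (adjusted p = 2.73e-05), the latter at 0.57 without siControl + TGFβ replicate 2. The other 3 (*TEAD2*, *TEAD3*, *VGLL4*) did not pass both thresholds in any comparison. For TGFβ in control cells *TEAD3* (0.51, limma adjusted p = 0.035) and *VGLL4* (0.30, adjusted p = 0.0314) passed the adjusted p but not the fold threshold. *VGLL4* was lower with depletion, also short of the fold threshold (-0.36, adjusted p = 0.00447, and with TGFβ -0.54, adjusted p = 0.000183). For TGFβ in depleted cells limma, edgeR and DESeq2 called 0 of the 4, where limma called 1.35% of all genes. There 1 factor had an unadjusted p under 0.05. The third list held 16 further genes of a 22-gene list of published YAP and TEAD targets, with 15 analysed. Depletion without TGFβ changed 3 (20%, near the 18.4% of all genes). *IGFBP3*, which binds insulin-like growth factors (0.96, adjusted p = 0.00272), and *TGFB2*, a TGFβ ligand (0.80, adjusted p = 3.76e-05), rose, and *F3*, tissue factor (-0.93, adjusted p = 0.00253), fell. By the adjusted p alone 12 of the 15 passed, 4 higher and 8 lower, where 47.4% of all genes did. Of the 15, 11 had a log2 fold change below 0, with a median of -0.27, while the 6 targets described first lay between 0.29 and 1.64. In TGFβ-treated cells 2 of the 15 were called (13.3%, against 20.5% of all genes): *TGFB2* (0.84, adjusted p = 2.02e-05) higher and *DOCK5*, an exchange factor for RAC (-0.60, adjusted p = 2.37e-05), lower, the latter at -0.48 without siPHF13 + TGFβ replicate 2. TGFβ in control cells raised 2 (13.3%, where 3.27% of all genes were higher): *NT5E*, the ectonucleotidase CD73 (0.64, adjusted p = 8.03e-06), and *IGFBP3* (0.77, adjusted p = 0.0278), which read 0.35 without siControl + TGFβ replicate 1. The *IGFBP3* call held in 9 of 12 alternatives. It was also lost without siControl replicate 1 (0.76) and without siControl replicate 2 (0.79). TGFβ in depleted cells changed 0 of the 15, where 1.35% of all genes were called. By the adjusted p alone 1 of the 15 passed there, *NT5E* (0.26, limma adjusted p = 0.0303), where 3.07% of all genes did. *PTPN14* and *VGLL4* each stand in 2 of these lists.

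**Figure D5:**
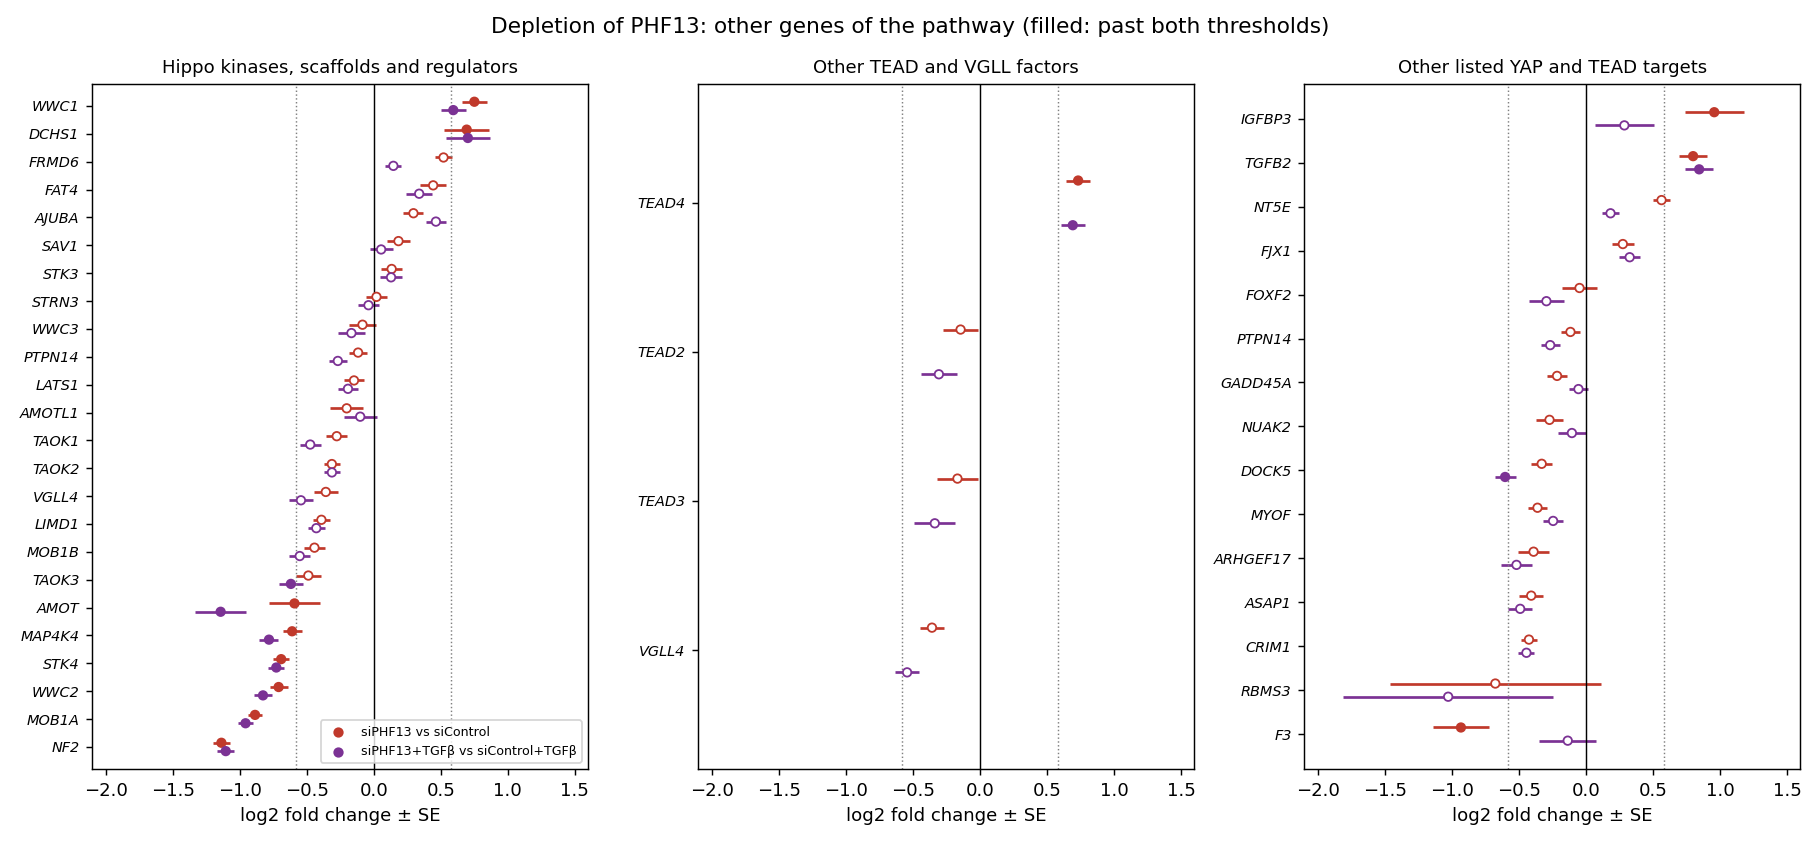
Log2 fold changes with depletion of *PHF13* (mean ± SE) for the other genes of the pathway, in 3 panels by list. Red is without and purple with TGFβ, and filled points passed both thresholds. *NF2* lies at -1.14 and -1.10 at the foot of the first panel, *TEAD4* alone is called in the second, and most listed targets in the third lie left of 0.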

How the data were processed

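PolyA RNA of 8 Panc-1 libraries was sequenced. According to the submitters' processing notes and the study's methods, the authors trimmed reads with Trim Galore 0.4.1, mapped them with STAR 2.7.0 (hg19, that is GRCh37), counted them on exons with HTSeq 0.12.4 and normalized them with DESeq2. The gene annotation release and the strand setting are not given in the sources used here. The values used are a signal that the authors deposited, in which each gene's reads were scaled by the library's DESeq2 size factor. The deposited comparison tables, with log2 fold changes and p-values of the authors, were not used. In every library 100% of values were whole multiples of 1 step (within 1e-06), which gave whole reads.

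All 8 libraries entered one limma 3.58.1 fit (R 4.3.3, trended prior variance, two-sided) on log2(normalized count + 1), without a replicate block. P-values were Benjamini-Hochberg adjusted over 13307 genes. A call needed an adjusted p below 0.05 and a log2 change beyond 0.58 either way, the study's thresholds. A minimum of 10 in 2 libraries removed 0 genes. Alternatives were edgeR 4.0.16 and DESeq2 1.42.0 on recovered reads, TMM factors, a pseudocount of 5, no filter, a minimum mean of 100, only the libraries compared, no fold threshold, a replicate block and each library left out. edgeR called 2437 genes for depletion without TGFβ, 640 for TGFβ in control cells, 2724 for depletion with TGFβ, 176 for TGFβ in depleted cells and 42 for the interaction. The members, lists and tests were chosen with earlier results of these data known. Besides the 10 members, the genes named by rule were the 2 largest rises and 2 largest falls among called genes of each list and the 5 genes most correlated with *CTGF*. Also named were *PHF13*, *SMAD7* and the cell type markers as checks. Outside that rule, the uncalled *TEAD2*, *TEAD3* and *VGLL4* of the second list were named, and *PTPN14*, which stands in 2 lists. One further gene fixed as a check of TGFβ treatment is not reported here.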

Additional observations from a re-analysis of the deposited data

Results flagged for a closer look

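The response of *CTGF* to TGFβ differed between depleted and control cells by the test of the difference itself, the interaction term of the limma fit: -0.66 on the log2 scale (SE 0.10, Benjamini-Hochberg adjusted p = 0.00909), with a rise of 1.32 in control and 0.66 in depleted cells. Over 15 alternatives it lay between -0.75 and -0.57 with adjusted p from 1.18e-06 to 0.142, and it passed both thresholds in 12. No other of the 10 genes passed this test, and the cause was not tested.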

How the results depend on the processing

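Apart from single libraries left out, no member reversed its direction under the alternatives. Besides *VGLL3*, some passes by the adjusted p alone did not hold in every alternative. These were *AMOTL2* (TGFβ in control cells, depletion with TGFβ), *CYR61* (TGFβ in depleted cells) and *YAP1* (depletion without and with TGFβ). Without a fold threshold 6308, 2114, 6712 and 409 genes passed (depletion, TGFβ, depletion with TGFβ, TGFβ in depleted cells), with 8, 6 and 7 of the 10 members in the first 3. For TGFβ in depleted cells, 1 member was called instead of 2 with a minimum mean of 100, by which *VGLL3* is not tested, and 1 with only the libraries compared, where *VGLL3* missed the threshold. With single libraries left out that count ran from 0 to 2, the interaction count of members from 0 to 1, and that of all genes from 12 (without siControl replicate 2) to 111 (without siPHF13 + TGFβ replicate 1). The cause was not tested. Small uncalled values changed sign with a library left out: for TGFβ in control cells *YAP1* (-0.10 to 0.01) and *TEAD1* (-0.04 to 0.04). For depletion with TGFβ these were *CYR61* (-0.01 to 0.13), *WWTR1* (-0.15 to 0.02) and *TEAD1* (-0.23 to 0.05). For TGFβ in depleted cells they were *AMOTL2* (-0.04 to 0.15), *LATS2* (-0.06 to 0.23), *WWTR1* (-0.05 to 0.12) and *TEAD1* (-0.09 to 0.18), and for the interaction *LATS2* (-0.26 to 0.03), *YAP1* (-0.08 to 0.03) and *TEAD1* (-0.10 to 0.18). Same-numbered libraries did not deviate together (correlations of -0.089 to 0.050). The replicate block gave 2438, 630, 2711, 171 and 39 called genes, with 4, 3, 4, 2 and 1 members. Rescaling by TMM moved the median of all genes by less than 0.005. Depth limits *VGLL3* most, at 20 to 173 reads a library.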

Other observations

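Among 11200 genes averaging 100 normalized counts or more, those whose log2 values ran most like *CTGF* over the 8 libraries were *NT5E* (Pearson r = 0.994), *ULK1* (0.993), *PWWP2A* (0.991), *ADAM19* (0.991) and *FRMD6* (0.991). Each r is a description over 8 libraries that fall into 4 groups. *ADAM19*, which encodes a membrane metalloprotease, had 1619.0 and 1565.1 normalized counts in siControl, 4634.1 and 4911.5 in siPHF13, 8412.3 and 8018.6 in siControl + TGFβ, and 11376.1 and 9879.0 in siPHF13 + TGFβ, and the groups kept the order seen for *CTGF*. *ULK1*, the kinase that starts autophagy, went from 4988.0 and 4791.6 in siControl to 18372.5 and 15646.3 in siPHF13 + TGFβ. Among the members *CYR61* was the most like *CTGF* (0.979, place 24), followed by *ANKRD1* (0.895), *AMOTL2* (0.823) and *LATS2* (0.627), while *AXL* stood at 0.02 and *YAP1* at -0.71.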
